A study of Mus musculus with 50 samples.

Results

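The comparison set LSK cells of Npm1 Flt3 mice against LSK cells of Dnmt3a Flt3 mice, the 2 double-mutant genotypes of the series. LSK cells are the Lineage-negative, Sca-1-positive, Kit-positive fraction of mouse bone marrow that holds the blood stem cells and the earliest multipotent progenitors. The libraries were chosen by their titles: 4 of Npm1 Flt3 LSK and 3 of Dnmt3a Flt3 LSK, which is 7 of the 50 libraries. Both groups carry a mutant Flt3 allele, so no result below isolates Flt3, and neither group is a wild-type control. Mutations were switched on with Cre, Dre or Flp recombinase and mice were killed at a set time or when they showed symptoms. The labels do not say which recombinase, allele, age, sex or disease state belongs to which of these 7 libraries. Sample codes place the Npm1 Flt3 libraries in one series of animals (numbers 1, 2, 3 and 5) and the Dnmt3a Flt3 libraries in another (numbers 93 and 96). Genotype and animal series therefore cannot be told apart. Nothing in the labels says how the libraries of a group differ beyond these codes, so p values measure only the spread between these libraries.

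Npm1 encodes nucleophosmin, a nucleolar chaperone of ribosome assembly, and its leukemia mutation moves the protein to the cytoplasm and is known for high expression of HOXA genes and their cofactor MEIS1. Dnmt3a encodes a DNA methyltransferase that adds new methyl marks, and its loss is known to favour self-renewal over differentiation in stem cells. Flt3 encodes the receptor tyrosine kinase of multipotent, lymphoid and dendritic progenitors, which signals through STAT5 and the MAP kinase pathway.

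Dnmt3a Flt3 replicate 1 has a title that says LSK and a code whose last letter is that of the GMP libraries (granulocyte-monocyte progenitors), and its animal number, 93, is also that of replicate 2. It was left out of the main test, which set 4 libraries against 2, and a second test with it, called the test by title, is given beside each list's count where its count differs. By the codes replicates 1 and 2 come from 1 animal, and the test by title treats them as independent libraries. The log2 CPM (counts scaled to a library total of 1000000) of replicate 1 correlated at 0.978 to 0.982 with the other Dnmt3a Flt3 LSK libraries. With the 3 Dnmt3a Flt3 GMP libraries it correlated at 0.963 to 0.968, across genes, which are not independent. The GMP marker Mpo was at 2608 CPM in replicate 1, 2511 and 3212 CPM in replicates 2 and 3, and 41327 to 52205 CPM in GMP. In the same order Elane was at 53.7, 50.4 and 46.1, and 2793 to 4491 CPM. Ly6a, a gene of the LSK sort, was at 54.8, 62.5 and 44.7, and 2.21 to 4.19 CPM. For each of these genes replicate 1 lay with the LSK libraries. Total counts lay between 60934043 and 114856425. X- and Y-linked genes were left out of all tests. Xist, the RNA of the inactive X chromosome, chosen after its values were seen, stood at 144 to 358 CPM in the Npm1 Flt3 libraries and 0.0697 to 0.336 CPM in the Dnmt3a Flt3 libraries. The Y-linked Ddx3y stood at 0 to 0.0187 CPM and 83.9 to 85.3 CPM. Sex and genotype therefore cannot be told apart either.

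Of the genes that define the sort, Kit, the receptor of stem cell factor, was at 79.6, 114, 147 and 72.5 CPM in Npm1 Flt3 replicates 1 to 4, 310.3 and 358 CPM in Dnmt3a Flt3 replicates 2 and 3, and 302 CPM in replicate 1. It was lower in Npm1 Flt3, with a log2 fold change of -1.64 ± 0.32 (± SE throughout; positive values are higher in Npm1 Flt3) and an adjusted p of 0.01 (Benjamini-Hochberg over all genes tested). Ly6a, which encodes Sca-1, was at 209, 174.1, 196 and 121 CPM in Npm1 Flt3 replicates 1 to 4, 62.5 and 44.7 CPM in Dnmt3a Flt3 replicates 2 and 3, and 54.8 CPM in replicate 1. It was higher in Npm1 Flt3 (1.73 ± 0.29, adjusted p = 0.00552), and neither gene's values overlapped between genotypes. Cd34, a surface sialomucin of progenitors, was lower (488 to 796 against 1512 to 1663 CPM; -1.32 ± 0.27, adjusted p = 0.0135). Markers that a lineage-negative gate removes were low but not all absent. Cd3e of T cells and Ly6g of neutrophils stayed under 1 CPM in all 7 libraries. The myeloid integrin gene Itgam ranged from 8.59 to 14.8 CPM in Npm1 Flt3 and from 2.06 to 6.24 CPM in Dnmt3a Flt3. In such bulk samples fewer cells of a type and less RNA per cell cannot be told apart.

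Flt3 itself was at 674, 530.3, 410.1 and 523 CPM in Npm1 Flt3 replicates 1 to 4, 135 and 224 CPM in Dnmt3a Flt3 replicates 2 and 3, and 415 CPM in replicate 1. Replicate 1 lay inside the Npm1 Flt3 range, and the other Dnmt3a Flt3 libraries lay below it. The log2 fold change was 1.59 ± 0.29 (adjusted p = 0.00774) without replicate 1, and 1.03 ± 0.34 (adjusted p = 0.0575) by title. Npm1 was at 1382, 1429, 1118 and 1896 CPM in Npm1 Flt3 replicates 1 to 4, 1774 and 1742 CPM in Dnmt3a Flt3 replicates 2 and 3, and 1458 CPM in replicate 1. Its difference of -0.22 ± 0.28 did not pass the test (adjusted p = 0.689). Dnmt3a was at 80.7, 90.2, 81.2 and 78.8 CPM in Npm1 Flt3 replicates 1 to 4, 65.0 and 67.7 CPM in Dnmt3a Flt3 replicates 2 and 3, and 84.0 CPM in replicate 1, and its difference of 0.35 ± 0.24 did not pass either (adjusted p = 0.41). Counts per gene do not show whether a mutant or a wild-type transcript was counted, so neither gene checks its genotype label.

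Of 18762 genes tested, 2256 were called at an adjusted p under 0.05, which is 12% of them: 1523 (8.12%) higher and 733 (3.91%) lower in Npm1 Flt3. By title the test called 3533 of 17294 genes (20.4%), 2081 higher (12%) and 1452 lower (8.4%). The calls shared by both, in the same direction, were 2093, which is 92.8% of the first set and 59.2% of the second. The 2 Dnmt3a Flt3 libraries carry much of the weight: without replicate 2 the count was 511 (449 higher and 62 lower) and without replicate 3 it was 452 (402 and 50), and without Npm1 Flt3 replicate 1 it was 1369. The split of directions moved too: 67.5% of the calls were higher in the main test, 87.9% without replicate 2, 88.9% without replicate 3 and 57.6% with median-ratio size factors (1469 higher and 1081 lower). With replicate 1 in place of replicate 2, so that each animal counted once, 1689 of 18374 genes were called (1062 higher and 627 lower). A gene that was not called is not thereby shown to be unchanged. Each gene named below as higher or lower passed the test without replicate 1, and it passed by title as well unless its value by title is given.

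**Figure D1:**
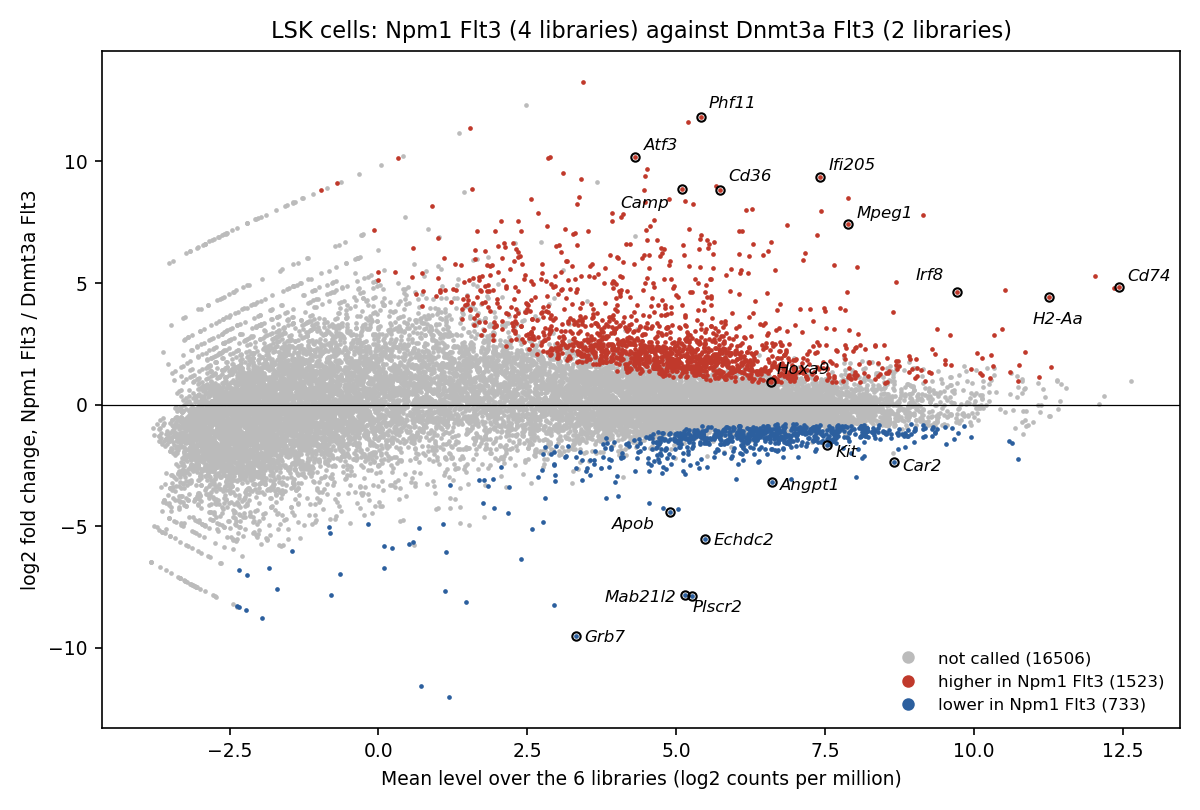
Log2 fold change (vertical axis, Npm1 Flt3 over Dnmt3a Flt3) against mean level in log2 CPM (horizontal axis) for the 18762 genes tested in 4 against 2 LSK libraries. Each point is a gene, red where called higher (1523) and blue where called lower (733) in Npm1 Flt3, and higher calls reach larger fold changes at high levels, with Cd74 and H2-Aa at the right and Grb7 and Mab21l2 at the bottom.

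The genes of antigen presentation by MHC class II and of dendritic cells had more higher calls in Npm1 Flt3 LSK, as a share of the list, than any other list in the main test. By title the list of S100, annexin and related genes had a larger share, and by DESeq2 the monocyte list did. The lists were chosen with earlier results of these data known, so a ranking among them is only a description. Of 16 class II and dendritic cell genes tested, 14 were higher and 0 lower, by both tests, and their median log2 fold change was 4.75 beside -0.0083 over all genes. H2-Aa, the alpha chain of I-A, was at 5168, 2391, 5014 and 1496 CPM in Npm1 Flt3 replicates 1 to 4, 167 and 166 CPM in Dnmt3a Flt3 replicates 2 and 3, and 197 CPM in replicate 1. The invariant chain gene Cd74, which escorts class II molecules to the endosome, was at 10259.6, 5365, 13013 and 2911 CPM in Npm1 Flt3 replicates 1 to 4, 271 and 295 CPM in Dnmt3a Flt3 replicates 2 and 3, and 473 CPM in replicate 1. Every Npm1 Flt3 library lay above every Dnmt3a Flt3 library for both genes, and replicates 1 and 3 were the highest, with log2 fold changes of 4.41 ± 0.54 (adjusted p = 0.00161) and 4.82 ± 0.63 (adjusted p = 0.00192). H2-Ab1 (4.80 ± 0.65) and H2-Eb1 (4.70 ± 0.58), the other classical chains, and the peptide-loading genes H2-DMa (2.27 ± 0.31) and H2-DMb1 (2.45 ± 0.44) were higher as well. Ciita, the coactivator on which class II transcription depends, was at 58.3 to 221 against 13.5 to 20.4 CPM (2.97 ± 0.54, adjusted p = 0.00793). The group's summed level was 9194 to 36185 CPM in the Npm1 Flt3 libraries and 1244 to 1619 CPM in the 3 Dnmt3a Flt3 libraries.

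The promoters of class II genes carry a Y box, the reversed CCAAT element bound by NF-Y, close upstream of the start. The 250 bases before the RefSeq start of 3 genes that were higher are shown as examples that hold ATTGG. It is in capitals, as is CCAAT, its other strand. H2-DMa was higher too, and its 250 bases held no ATTGG on either strand. H2-Aa lies on the minus strand at chr17:34287824-34288073, H2-Eb1 on the plus strand at chr17:34305617-34305866 and H2-DMb1 on the plus strand at chr17:34152941-34153190 of GRCm38.p6.
H2-Aa: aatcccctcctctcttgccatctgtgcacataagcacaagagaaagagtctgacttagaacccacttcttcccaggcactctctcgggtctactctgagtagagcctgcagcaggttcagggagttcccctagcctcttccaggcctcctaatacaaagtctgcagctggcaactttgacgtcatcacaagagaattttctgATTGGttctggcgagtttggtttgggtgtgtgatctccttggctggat
H2-Eb1: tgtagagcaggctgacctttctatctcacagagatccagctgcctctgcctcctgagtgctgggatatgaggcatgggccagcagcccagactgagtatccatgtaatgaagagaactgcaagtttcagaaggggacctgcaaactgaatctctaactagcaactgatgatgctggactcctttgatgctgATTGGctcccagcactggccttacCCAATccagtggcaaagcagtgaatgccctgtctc
H2-DMb1: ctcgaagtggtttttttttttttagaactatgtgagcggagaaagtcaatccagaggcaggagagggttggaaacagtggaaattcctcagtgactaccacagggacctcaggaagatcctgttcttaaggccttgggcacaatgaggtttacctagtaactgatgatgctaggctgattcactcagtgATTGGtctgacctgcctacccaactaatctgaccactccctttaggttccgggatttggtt
Of the 12 group members with a promoter in the table, 5 held ATTGG on either strand, against 34.5% of all 27025 promoters of that length. The longer CTGATTGG stood in H2-Aa and H2-Eb1, against 4.06% of all promoters. A match is a description of the letters and not evidence of binding.

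Dendritic cell genes showed the same direction for both main subsets. Batf3, the factor needed for cross-presenting dendritic cells, was at 43.8, 13.8, 57.1 and 13.5 CPM in Npm1 Flt3 replicates 1 to 4, 0.0623 and 0.0305 CPM in Dnmt3a Flt3 replicates 2 and 3, and 0.0348 CPM in replicate 1. For Batf3 every Npm1 Flt3 library lay above all 3 of Dnmt3a Flt3 (9.42 ± 1.04, adjusted p = 0.00108). The receptors of that subset, Xcr1 (36.8 to 153 against 0.0522 to 1.02 CPM; 7.14 ± 0.74) and Clec9a (12.8 to 107 against 0.374 to 0.565 CPM; 6.80 ± 0.85), were also higher. Siglech, a receptor of plasmacytoid dendritic cells, was at 133, 107, 81.8 and 70.2 CPM in Npm1 Flt3 replicates 1 to 4, 0.981 and 0.412 CPM in Dnmt3a Flt3 replicates 2 and 3, and 0.244 CPM in replicate 1. For Siglech every Npm1 Flt3 library lay above all 3 of Dnmt3a Flt3 (7.14 ± 0.50, adjusted p = 0.000244). Itgax, which encodes CD11c, and Cd209a were higher by 5.15 ± 0.90 and 6.63 ± 1.19. The members that were not called were Tcf4, the plasmacytoid lineage factor (151 to 228 against 131 to 174.4 CPM; adjusted p = 0.151), and Flt3l, the Flt3 ligand gene (1.99 to 5.15 against 6.12 to 8.13 CPM; adjusted p = 0.386).

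Monocyte genes were higher in 13 of 15 and lower in 0, by both tests, with a median of 3.84 and no overlap between the 4 and the 3 libraries for any of the 15. By comparison, 34.2% of all tested genes showed no overlap in either direction. Mpeg1, a pore-forming protein of phagocytes, was at 566, 271, 390.3 and 165 CPM in Npm1 Flt3 replicates 1 to 4, 2.07 and 1.999 CPM in Dnmt3a Flt3 replicates 2 and 3, and 0 CPM in replicate 1. For Mpeg1 every Npm1 Flt3 library lay above all 3 of Dnmt3a Flt3 (7.41 ± 0.55, adjusted p = 0.000244). The lysosomal protease gene Ctss was at 182 to 455 against 11.2 to 21.3 CPM (4.62 ± 0.45, adjusted p = 0.000654), and the chemokine receptor gene Ccr2, which lets monocytes leave the marrow, was at 47.6 to 153 against 8.64 to 14.2 CPM (3.59 ± 0.49, adjusted p = 0.00233). Ly86 (8.04 ± 0.72), Ly6c2 (6.16 ± 0.58), Ms4a6c (5.59 ± 0.47), F13a1 (4.81 ± 0.69), Cx3cr1 (3.84 ± 0.86), Clec12a (2.40 ± 0.26), Psap (2.17 ± 0.60) and Lyz2 (0.89 ± 0.26) completed the list with 2 genes whose call was lost by title. These were Csf1r, the M-CSF receptor (3.17 ± 0.62; by title adjusted p = 0.0515), and Klf4, a monocyte transcription factor (3.36 ± 0.58; by title adjusted p = 0.0507). The by-title count is equal because other members were called there. Of 12 mature macrophage genes edgeR called 0, with 4 at an unadjusted p under 0.05, and 2 were higher by title. DESeq2 called 6 of them higher.

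Transcription factors of the myeloid lineages were higher in 8 of 13 and lower in 0. Irf8, which directs dendritic cell and monocyte fates, was at 1360.1, 982, 2089 and 364 CPM in Npm1 Flt3 replicates 1 to 4, 39.0 and 59.8 CPM in Dnmt3a Flt3 replicates 2 and 3, and 72.4 CPM in replicate 1. For Irf8 every Npm1 Flt3 library lay above all 3 of Dnmt3a Flt3 (4.63 ± 0.67, adjusted p = 0.00328). Id2, an inhibitor of E proteins needed for dendritic and innate lymphoid cells, was at 866, 424, 651 and 328 CPM in Npm1 Flt3 replicates 1 to 4, 43.5 and 37.0 CPM in Dnmt3a Flt3 replicates 2 and 3, and 45.6 CPM in replicate 1. For Id2 every Npm1 Flt3 library lay above all 3 of Dnmt3a Flt3 (3.82 ± 0.41, adjusted p = 0.000935). Both stood several-fold above the highest Dnmt3a Flt3 library in all 4 Npm1 Flt3 libraries. Cebpa, the factor of granulocyte-monocyte commitment, was higher from a low level (7.99 to 14.5 against 1.04 to 1.68 CPM; 3.08 ± 0.58, adjusted p = 0.00909), as were Irf4 (4.12 ± 0.70) and Zeb2 (3.69 ± 0.57). Runx2 (1.64 ± 0.37) and Runx3 (1.37 ± 0.37) were higher too. Runx1 was at 81.2, 69.8, 36.6 and 76.4 CPM in Npm1 Flt3 replicates 1 to 4, 16.5 and 14.8 CPM in Dnmt3a Flt3 replicates 2 and 3, and 44.6 CPM in replicate 1, so replicate 1 lay inside the Npm1 Flt3 range, and its difference of 2.10 ± 0.37 was not called by title (adjusted p = 0.0518).

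**Figure D2:**
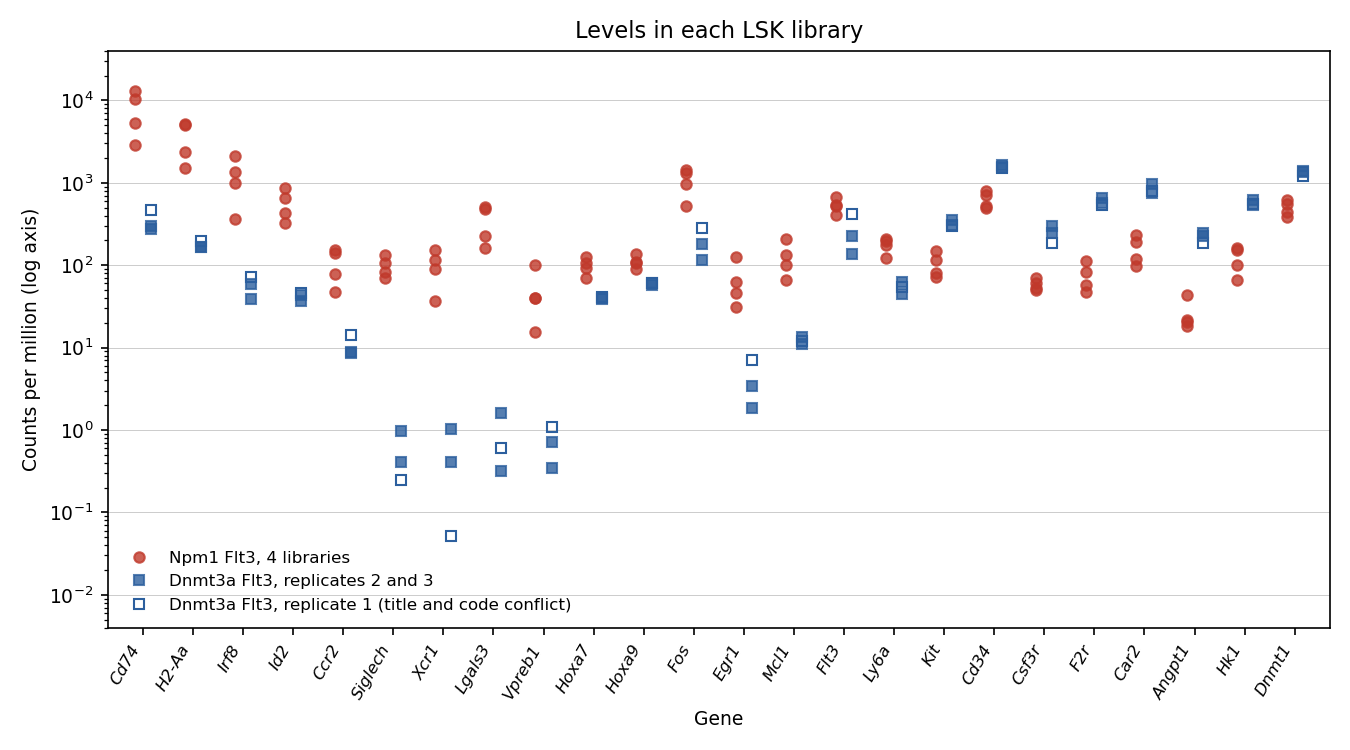
CPM (log axis) of 24 genes in each of the 7 LSK libraries. Red circles are the 4 Npm1 Flt3 libraries, filled squares Dnmt3a Flt3 replicates 2 and 3, and open squares replicate 1; the groups separate for each gene shown except Flt3, where the open square lies among the circles.

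Neutrophil genes were listed by the stage of granule formation. Late genes were higher in 6 of 13 and lower in 0, with a median of 4.65 (3.94 with genes at 0 in a group set to their bound). Camp, the cathelicidin of secondary granules, was at 27.5, 39.9, 36.0 and 87.0 CPM in Npm1 Flt3 replicates 1 to 4, 0.125 and 0.0916 CPM in Dnmt3a Flt3 replicates 2 and 3, and 0.104 CPM in replicate 1. For Camp every Npm1 Flt3 library lay above all 3 of Dnmt3a Flt3 (8.85 ± 0.84, adjusted p = 0.000569). S100a8 (38.2 to 124 against 0.0871 to 1.23 CPM; 6.70 ± 0.96), S100a9 (6.79 ± 0.98), Ngp (5.53 ± 0.89), Chi3l3 (6.25 ± 0.75) and the iron-binding lipocalin gene Lcn2 (2.13 ± 0.46) were also higher. Primary granule genes were higher in 3 of 13 and lower in 0, with a median of -0.073, and by title in 4 and lower in 2. Elane, neutrophil elastase, was at 109, 199, 377 and 147 CPM in Npm1 Flt3 replicates 1 to 4, 50.4 and 46.1 CPM in Dnmt3a Flt3 replicates 2 and 3, and 53.7 CPM in replicate 1. For Elane every Npm1 Flt3 library lay above all 3 of Dnmt3a Flt3 (2.18 ± 0.52, adjusted p = 0.0234). Prtn3 was at 363 to 474 against 140.3 to 194 CPM (1.19 ± 0.28, adjusted p = 0.0218) and Hp, haptoglobin, at 50.1 to 70.0 against 4.29 to 7.63 CPM (3.13 ± 0.34, adjusted p = 0.00106). Mpo, myeloperoxidase, was at 617, 1383, 1905 and 807 CPM in Npm1 Flt3 replicates 1 to 4, 2511 and 3212 CPM in Dnmt3a Flt3 replicates 2 and 3, and 2608 CPM in replicate 1: the difference of -1.22 ± 0.42 did not pass the main test (adjusted p = 0.0903) and passed by title (adjusted p = 0.0461). Ctsg (566 to 922 against 386 to 479 CPM; adjusted p = 0.251), Ms4a3 (28.8 to 68.7 against 78.2 to 117 CPM; adjusted p = 0.0994) and Fcgr3 (10.1 to 15.9 against 2.80 to 6.13 CPM; adjusted p = 0.0948), the remaining GMP markers, were not called in the main test.

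Genes of calcium-binding and membrane-associated proteins that rise in maturing blood cells were higher in 10 of 14 (13 by title) and lower in 0. Lgals3, galectin-3, was at 508, 228, 483 and 161 CPM in Npm1 Flt3 replicates 1 to 4, 1.62 and 0.32 CPM in Dnmt3a Flt3 replicates 2 and 3, and 0.601 CPM in replicate 1. For Lgals3 every Npm1 Flt3 library lay above all 3 of Dnmt3a Flt3 (8.49 ± 0.88, adjusted p = 0.000866). Ahnak (68.1 to 155.98 against 2.43 to 4.72 CPM; 5.42 ± 0.47), Lgals1 (248 to 488 against 2.98 to 12.1 CPM; 5.67 ± 0.67) and the intermediate filament gene Vim (682 to 927 against 187 to 214 CPM; 2.09 ± 0.29) followed, with S100a4 (2.97 ± 0.57), S100a6 (1.60 ± 0.41), S100a10 (1.46 ± 0.42), Anxa1 (1.28 ± 0.30), Anxa2 (1.49 ± 0.29) and Crip1 (1.76 ± 0.40).

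Lymphoid priming genes, which multipotent progenitors switch on before lineage choice, were higher in 7 of 12 (8 by title) and lower in 0, with a median of 3.02. Satb1, a chromatin organiser of lymphoid progenitors, was at 39.7 to 100.3 against 7.75 to 17.3 CPM (2.94 ± 0.39) and Notch1, the receptor of T lineage entry, at 28.6 to 53.2 against 8.20 to 16.5 CPM (1.85 ± 0.44). The homing receptors Ccr9 (13.3 to 16.6 against 1.02 to 2.01 CPM; 3.31 ± 0.55) and Ccr7 (7.54 to 66.9 against 0.975 to 2.78 CPM; 4.01 ± 0.78) and the lymphoid factor gene Ikzf1 (85.3 to 180.3 against 53.7 to 102 CPM; 1.20 ± 0.31) were higher as well. Il7r, the interleukin-7 receptor chain, was at 26.3, 36.7, 17.8 and 7.14 CPM in Npm1 Flt3 replicates 1 to 4, 0.358 and 0.244 CPM in Dnmt3a Flt3 replicates 2 and 3, and 6.66 CPM in replicate 1. Replicate 1 came close to the lowest Npm1 Flt3 library, and the call of 6.16 ± 0.77 was lost by title (adjusted p = 0.077).

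B cell genes were higher in 7 of 12 and lower in 0, by both tests. Their summed level was 166 to 881 CPM in the Npm1 Flt3 libraries and 55.0 to 66.1 CPM in the 3 Dnmt3a Flt3 libraries. Vpreb1 and Igll1 encode the surrogate light chain of the pre-B cell receptor. Vpreb1 was at 40.0, 39.7, 99.9 and 15.7 CPM in Npm1 Flt3 replicates 1 to 4, 0.342 and 0.717 CPM in Dnmt3a Flt3 replicates 2 and 3, and 1.09 CPM in replicate 1. For Vpreb1 every Npm1 Flt3 library lay above all 3 of Dnmt3a Flt3 (6.57 ± 0.90, adjusted p = 0.00244). Igll1 was at 45.3 to 278 against 0.296 to 2.41 CPM (6.68 ± 1.05, adjusted p = 0.00423). Cd79a, the receptor's signalling chain, was at 26.6, 43.8, 82.8 and 14.6 CPM in Npm1 Flt3 replicates 1 to 4, 0.654 and 0.778 CPM in Dnmt3a Flt3 replicates 2 and 3, and 0.958 CPM in replicate 1. For Cd79a every Npm1 Flt3 library lay above all 3 of Dnmt3a Flt3 (5.93 ± 0.83, adjusted p = 0.0027). Replicate 3 was the highest and replicate 4 the lowest Npm1 Flt3 library for all 3 genes, and also for Ebf1, the factor of B lineage commitment (16.1, 26.8, 47.5 and 2.75 against 0.934 to 1.98 CPM; 4.57 ± 1.03, adjusted p = 0.0188), Blnk (5.60 ± 1.01) and Vpreb3 (5.07 ± 1.45). Of 18 T and NK cell genes 5 were higher and 1 lower (8 and 2 by title). Klrd1, the CD94 receptor of NK cells, was at 24.3, 16.3, 12.1 and 8.39 CPM in Npm1 Flt3 replicates 1 to 4, 0.0778 and 0 CPM in Dnmt3a Flt3 replicates 2 and 3, and 0.00871 CPM in replicate 1. For Klrd1 every Npm1 Flt3 library lay above all 3 of Dnmt3a Flt3 (8.55 ± 1.07, adjusted p = 0.00164). Tcf7, a factor of early T cells and innate progenitors, was at 25.8 to 88.5 against 5.31 to 13.4 CPM (3.11 ± 0.54, adjusted p = 0.00625). Ncr1 (6.48 ± 1.22), Gzma (5.17 ± 1.36) and Cd4 (5.73 ± 1.67; adjusted p = 0.0498) were higher from levels near 0. The adaptor gene Lat, which megakaryocytes and mast cells also use, was lower (56.4 to 102 against 213 to 228 CPM; -1.42 ± 0.31, adjusted p = 0.0156). Which cells in the sort held these transcripts was not tested.

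Hoxa genes, on which the self-renewal of Npm1-mutant leukemia depends, were called for some members. In the Hoxa cluster on chromosome 6, 3 of 9 tested genes were higher and 0 lower (4 higher by title), with a median of 1.84 and a summed level of 247 to 268 CPM in the Npm1 Flt3 libraries and 112 to 122 CPM in the 3 Dnmt3a Flt3 libraries. Hoxa9 (chr6:52223100-52231089, mm10) was at 110.5, 136, 105 and 89.4 CPM in Npm1 Flt3 replicates 1 to 4, 56.7 and 61.3 CPM in Dnmt3a Flt3 replicates 2 and 3, and 60.7 CPM in replicate 1. Hoxa7 (chr6:52214491-52221854) was at 91.3, 69.5, 105 and 125 CPM in Npm1 Flt3 replicates 1 to 4, 38.9 and 40.5 CPM in Dnmt3a Flt3 replicates 2 and 3, and 41.3 CPM in replicate 1. Both were above all 3 Dnmt3a Flt3 libraries in every Npm1 Flt3 library, with log2 fold changes of 0.92 ± 0.25 (adjusted p = 0.0391) and 1.36 ± 0.35 (adjusted p = 0.0303). Hoxa10 was at 34.0, 28.3, 25.5 and 36.3 CPM in Npm1 Flt3 replicates 1 to 4, 14.1 and 15.5 CPM in Dnmt3a Flt3 replicates 2 and 3, and 16.3 CPM in replicate 1 without overlap, and passed only by title (1.11 ± 0.35, adjusted p = 0.0663; by title 0.0237). Hoxa5 did the same from a lower level (4.35 to 11.7 against 0.716 to 2.35 CPM; adjusted p = 0.0822; by title 0.0244). Hoxa4 was low (0.671 to 2.19 against 0.0311 to 0.305 CPM), and its call of 5.13 ± 1.45 was lost by title (adjusted p = 0.0701). Hoxa6 (1.28 to 3.02 against 0.156 to 0.717 CPM), Hoxa2 (0.165 to 1.79 against 0.107 to 0.451 CPM) and Hoxa3 (0.616 to 3.57 against 0.638 to 1.67 CPM) were not called. In the Hoxb cluster edgeR called 0 of 7 genes, with 1 at an unadjusted p under 0.05, and DESeq2 called 1 lower. By title 1 was lower, Hoxb9 (0 to 0.207 against 1.27 to 3.43 CPM; adjusted p = 0.0493). The summed level of the Hoxb genes was 1.96 to 3.56 CPM in the Npm1 Flt3 libraries and 3.86 to 17.6 CPM in the 3 Dnmt3a Flt3 libraries.

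The Hox cofactor genes did not share one direction. Meis1, the main partner of HOXA9 in leukemia, was at 60.8, 93.8, 63.0 and 96.9 CPM in Npm1 Flt3 replicates 1 to 4, 154 and 135 CPM in Dnmt3a Flt3 replicates 2 and 3, and 149.8 CPM in replicate 1. All 4 Npm1 Flt3 libraries lay below the Dnmt3a Flt3 libraries, with a difference of -0.83 ± 0.30 that did not pass the main test (adjusted p = 0.0996) and passed by title (adjusted p = 0.0298). Pbx3 (1.17 to 3.45 against 1.001 to 1.46 CPM; adjusted p = 0.599) and Mecom (9.09 to 33.0 against 24.8 to 37.6 CPM; adjusted p = 0.487) overlapped. Of the 17 cofactor and leukemia factor genes tested, 3 were higher and 1 lower (5 and 2 by title). Nkx2-3, a homeobox gene, was at 6.51, 4.86, 1.72 and 9.30 CPM in Npm1 Flt3 replicates 1 to 4, 0.156 and 0.549 CPM in Dnmt3a Flt3 replicates 2 and 3, and 1.09 CPM in replicate 1. For Nkx2-3 every Npm1 Flt3 library lay above all 3 of Dnmt3a Flt3 (4.02 ± 1.03, adjusted p = 0.0315). Myb, a factor of progenitor growth, was at 82.8 to 124 against 52.6 to 69.9 CPM (0.98 ± 0.26, adjusted p = 0.0337). Lmo2, a bridging protein of stem cell complexes, was at 48.0 to 123 against 28.02 to 54.1 CPM (1.62 ± 0.39, adjusted p = 0.0248). Eya1, a coactivator of homeodomain proteins, was lower (19.3, 22.6, 14.01 and 11.2 CPM in Npm1 Flt3 replicates 1 to 4, 72.4 and 45.7 CPM in Dnmt3a Flt3 replicates 2 and 3, and 49.7 CPM in replicate 1; -1.81 ± 0.34, adjusted p = 0.00857). Mef2c, a factor of lymphoid and leukemic progenitors, was at 239 to 379 against 116 to 174.2 CPM and passed only by title (adjusted p = 0.0553; by title 0.0114), as did Meis3 (0.187 to 4.82 against 0.0778 to 0.0958 CPM; adjusted p = 0.111; by title 0.0429).

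Of 20 stem cell genes 2 were higher (Ly6a and Sult1a1) and 0 lower in the main test, beside 8.12% and 3.91% over all genes tested. By title 3 were higher and 4 lower, and DESeq2 called 2 higher and 4 lower. Without overlap between the 4 and the 3 libraries, 3 were higher and 8 lower. Over all tested genes 34.2% showed no overlap in either direction. The list had a median of -0.48. Sult1a1, a sulfotransferase gene, was at 62.0, 27.5, 21.8 and 26.04 CPM in Npm1 Flt3 replicates 1 to 4, 0.451 and 0.504 CPM in Dnmt3a Flt3 replicates 2 and 3, and 1.04 CPM in replicate 1. For Sult1a1 every Npm1 Flt3 library lay above all 3 of Dnmt3a Flt3 (6.15 ± 0.58, adjusted p = 0.000569). Procr, the EPCR receptor of long-term stem cells, was at 10.05, 6.55, 9.32 and 9.76 CPM in Npm1 Flt3 replicates 1 to 4, 12.1 and 19.7 CPM in Dnmt3a Flt3 replicates 2 and 3, and 22.9 CPM in replicate 1 without overlap, and its difference of -0.79 ± 0.44 did not pass (adjusted p = 0.284). Esam, an adhesion gene of stem cells and megakaryocytes, was at 0.0103 to 5.35 against 15.7 to 31.4 CPM (-3.22 ± 1.16, adjusted p = 0.1). The stem cell factor genes Hlf (5.43 to 12.4 against 3.18 to 8.82 CPM; adjusted p = 0.5) and Mllt3 (15.3 to 23.8 against 22.9 to 33.3 CPM; adjusted p = 0.729) overlapped.

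Megakaryocyte and erythroid genes were called at about the share over all genes tested, 12%. F2r, the thrombin receptor, was at 47.8, 113, 57.8 and 82.1 CPM in Npm1 Flt3 replicates 1 to 4, 644 and 573 CPM in Dnmt3a Flt3 replicates 2 and 3, and 539.7 CPM in replicate 1. For F2r every Npm1 Flt3 library lay below all 3 of Dnmt3a Flt3 (-2.98 ± 0.34, adjusted p = 0.00117). It was 1 of 8 megakaryocyte genes called (2 by title). The list had a median of -1.86, and 4 members were at an unadjusted p under 0.05. DESeq2 called 4 of them lower and 1 higher. The list's summed level was 91.0 to 201 CPM in the Npm1 Flt3 libraries and 683 to 815 CPM in the 3 Dnmt3a Flt3 libraries, most of it from F2r itself in the Dnmt3a Flt3 libraries. Itga2b, the CD41 integrin, was at 10.01 to 66.6 against 87.0 to 120.2 CPM (-1.74 ± 0.61, adjusted p = 0.094). Car2, carbonic anhydrase of erythroid progenitors, was at 119.7, 194, 96.5 and 229 CPM in Npm1 Flt3 replicates 1 to 4, 755 and 959.5 CPM in Dnmt3a Flt3 replicates 2 and 3, and 795 CPM in replicate 1 (-2.37 ± 0.36, adjusted p = 0.00372) and was the 1 called gene of 10 erythroid genes. Of 9 stromal and endothelial genes 1 was lower, Sparc (16.4 to 41.9 against 76.7 to 86.9 CPM; -1.58 ± 0.42, adjusted p = 0.0361), and of 9 mast cell, basophil and eosinophil genes 1 was higher, Gzmb (8.38 to 13.7 against 0.981 to 4.50 CPM; 2.34 ± 0.64, adjusted p = 0.0416). Both shares were also near the 12% over all genes tested.

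Among cytokine receptor genes 7 of 20 were higher and 2 lower in the main test, and 2 higher and 3 lower by title, so most of the higher calls rested on leaving out replicate 1. Csf3r, the G-CSF receptor, was at 50.6, 69.8, 61.2 and 53.3 CPM in Npm1 Flt3 replicates 1 to 4, 243 and 297 CPM in Dnmt3a Flt3 replicates 2 and 3, and 186 CPM in replicate 1. It was lower in all Npm1 Flt3 libraries (-2.16 ± 0.25, adjusted p = 0.00117), as Kit was. Il6ra, the interleukin-6 receptor, was higher (9.70 to 22.7 against 0.165 to 0.916 CPM; 4.14 ± 0.62, adjusted p = 0.00367), as was Ifngr1 (183 to 340.3 against 134 to 198 CPM; 1.05 ± 0.28, adjusted p = 0.0357). The GM-CSF receptor genes Csf2ra (18.6 to 39.9 against 5.93 to 15.7 CPM; 1.78 ± 0.44; by title adjusted p = 0.0535) and Csf2rb2 (10.8 to 30.04 against 2.93 to 10.98 CPM; 2.45 ± 0.51; by title adjusted p = 0.0532) lost their calls by title. Of 17 adhesion and homing genes 1 was higher, the integrin gene Itgb2 (81.1 to 163 against 20.9 to 26.5 CPM; 2.36 ± 0.36, adjusted p = 0.00385), and 2 were lower, Cd34 and the tetraspanin gene Cd63 (76.9 to 156.4 against 266 to 281 CPM; -1.39 ± 0.34, adjusted p = 0.0265). By title 4 of the adhesion and homing genes were higher and 4 lower.

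**Figure D3:**
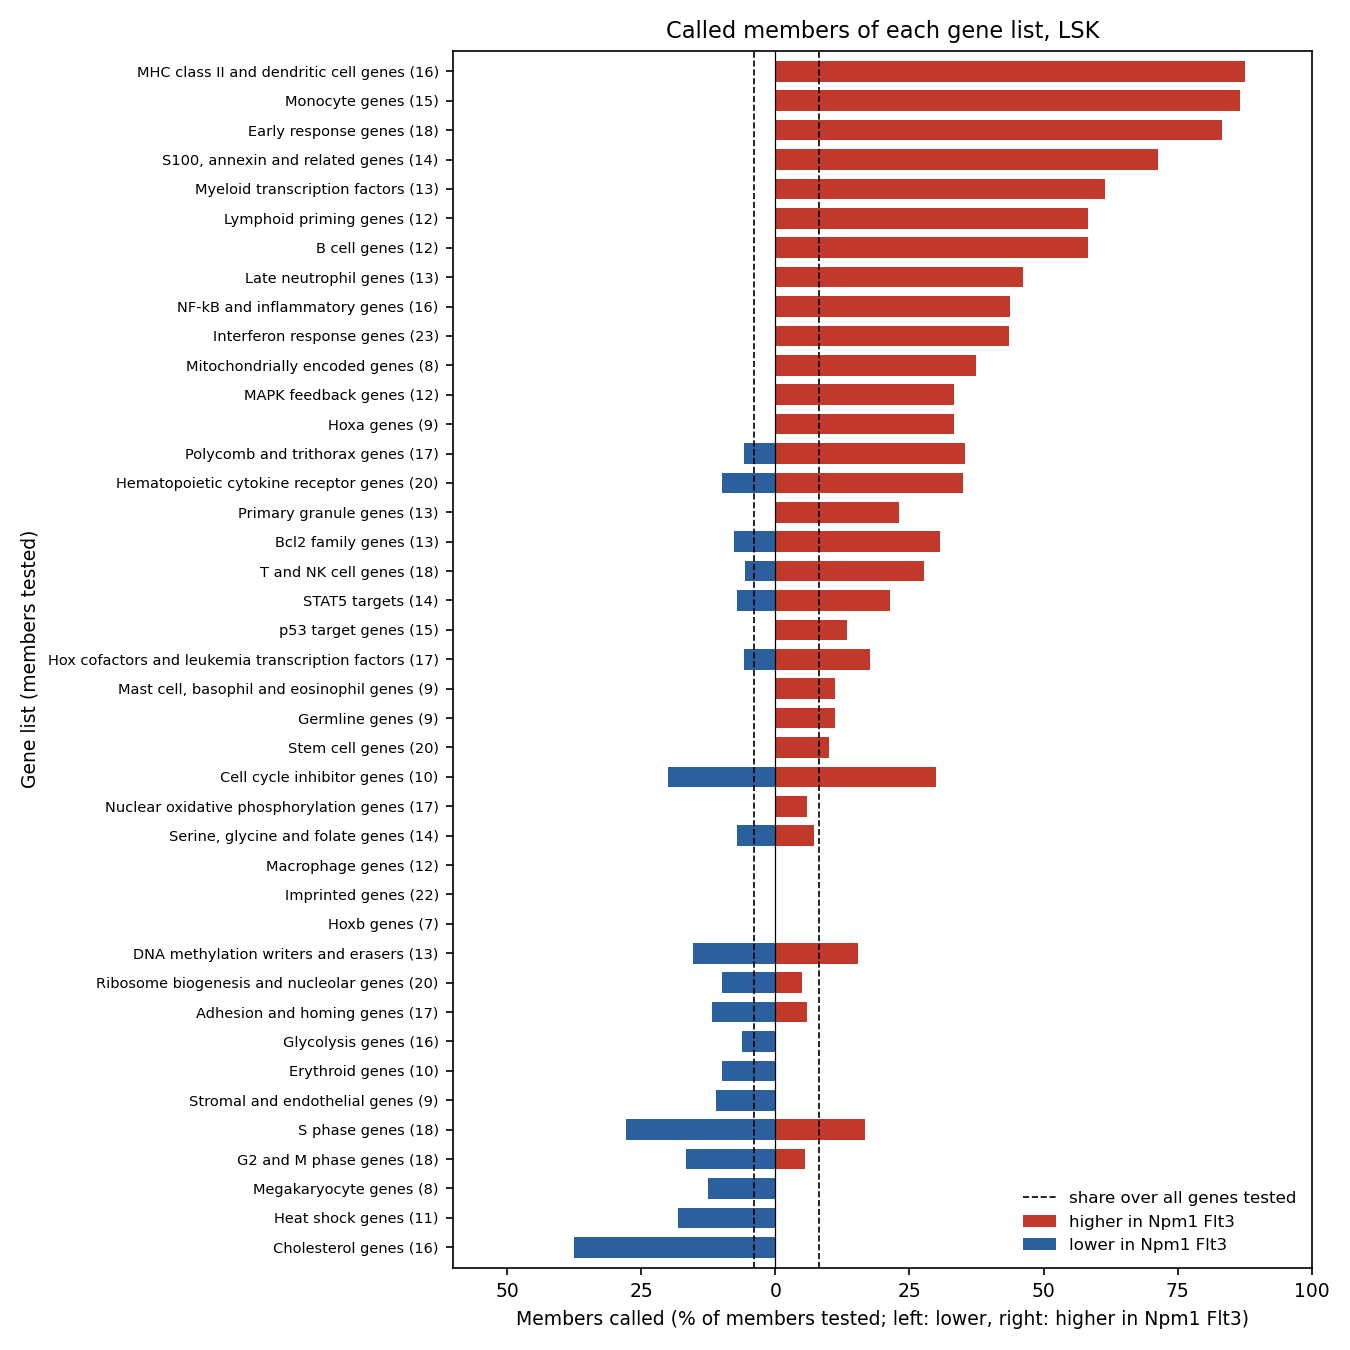
Share of the tested members of each gene list called higher (red, to the right) or lower (blue, to the left) in Npm1 Flt3 LSK, in percent, for lists with 7 or more tested members (numbers in brackets). Dashed lines mark the shares over all tested genes, 8.12% higher and 3.91% lower; MHC class II and dendritic cell genes stand at the top with 14 of 16 higher and cholesterol genes at the bottom with 6 of 16 lower.

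Early response genes, which cells switch on within minutes of a stimulus, were higher in 15 of 18 (12 by title) and lower in 0, with a median of 2.98. Fos was at 1330.1, 971, 1427 and 524 CPM in Npm1 Flt3 replicates 1 to 4, 182 and 115 CPM in Dnmt3a Flt3 replicates 2 and 3, and 286 CPM in replicate 1. For Fos every Npm1 Flt3 library lay above all 3 of Dnmt3a Flt3 (2.86 ± 0.42, adjusted p = 0.00359). Egr1, a zinc finger factor downstream of the MAP kinase pathway, was at 125, 62.2, 46.2 and 31.0 CPM in Npm1 Flt3 replicates 1 to 4, 3.44 and 1.83 CPM in Dnmt3a Flt3 replicates 2 and 3, and 7.10 CPM in replicate 1. For Egr1 every Npm1 Flt3 library lay above all 3 of Dnmt3a Flt3 (4.61 ± 0.58, adjusted p = 0.00171). Klf2 (22.8 to 68.6 against 0.153 to 0.401 CPM; 7.36 ± 0.70), Atf3 (given below), Ier5 (4.92 ± 0.60), Fosb (3.88 ± 0.56), Nr4a1 (5.15 ± 0.79), Btg2 (3.09 ± 0.44), Zfp36 (2.47 ± 0.41), Ier3 (2.11 ± 0.35), Klf6 (1.87 ± 0.29) and Jund (3.44 ± 0.76) were higher too. Jun was at 77.8, 44.5, 57.3 and 55.4 CPM in Npm1 Flt3 replicates 1 to 4, 15.2 and 11.1 CPM in Dnmt3a Flt3 replicates 2 and 3, and 215 CPM in replicate 1. Replicate 1 was above every other library, so the call of 2.19 ± 0.34 was lost and the direction turned by title (-0.47 ± 0.84, adjusted p = 0.767). Junb was at 147, 106, 95.98 and 41.4 CPM in Npm1 Flt3 replicates 1 to 4, 17.7 and 25.5 CPM in Dnmt3a Flt3 replicates 2 and 3, and 100.2 CPM in replicate 1. Replicate 1 lay inside the Npm1 Flt3 range, and the call was lost by title (adjusted p = 0.284). Egr2 lost its call too (5.42 ± 1.50; by title adjusted p = 0.0593). MAPK feedback genes were higher in 4 of 12, by both tests, all of them phosphatase genes: Dusp1 (52.8 to 208 against 3.45 to 8.11 CPM; 4.54 ± 0.59), Dusp2 (3.47 ± 0.53), Dusp5 (3.21 ± 0.58) and Dusp7 (2.39 ± 0.52). Heat shock genes were lower in 2 of 11 (4 by title) and higher in 0: Hsph1 (51.7 to 91.4 against 155 to 196 CPM; -1.29 ± 0.31, adjusted p = 0.0237) and Hspd1 (385 to 593 against 815 to 963 CPM; -1.02 ± 0.25, adjusted p = 0.0248).

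STAT5 targets, the genes read out by Flt3 signalling, were higher in 3 of 14 and lower in 1 (4 and 1 by title). Socs2 (336 to 584 against 455 to 655 CPM; adjusted p = 0.948) and Cish (92.3 to 167 against 93.5 to 112 CPM; adjusted p = 0.427), the feedback inhibitors most used as STAT5 readouts, did not pass. Pim1, a survival kinase gene, was at 15.4 to 27.1 against 4.20 to 4.58 CPM (2.25 ± 0.47, adjusted p = 0.0141), Ccnd1 at 4.02 to 35.2 against 0.0697 to 0.671 CPM (5.01 ± 0.90, adjusted p = 0.00751) and Bcl6 at 3.86 to 19.9 against 0.174 to 1.40 CPM (3.49 ± 0.74, adjusted p = 0.0147). Bcl2l1, which encodes BCL-XL, was lower (28.4 to 72.0 against 123 to 150.2 CPM; -1.32 ± 0.37, adjusted p = 0.0456). In the Bcl2 family 4 of 13 were higher and 1 lower (5 and 2 by title). Mcl1, the survival factor on which stem cells depend, was at 206, 101, 66.1 and 134 CPM in Npm1 Flt3 replicates 1 to 4, 11.1 and 13.3 CPM in Dnmt3a Flt3 replicates 2 and 3, and 11.9 CPM in replicate 1. For Mcl1 every Npm1 Flt3 library lay above all 3 of Dnmt3a Flt3 (3.37 ± 0.43, adjusted p = 0.00185). Bcl2l11, the death-promoting BIM, was also higher (28.1 to 38.4 against 12.3 to 18.9 CPM; 1.21 ± 0.34, adjusted p = 0.0434). The near-identical genes Bcl2a1a (8.83 ± 0.85), Bcl2a1b (6.02 ± 0.91) and Bcl2a1d (7.85 ± 0.70) were higher, though reads can be split between these copies and their single values are uncertain.

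Inflammatory genes of the NF-kB pathway were higher in 7 of 16 (8 by title) and lower in 0. The chemokine genes Ccl3 and Ccl4 were at 17.0 to 58.8 against 0.42 to 0.549 CPM (6.39 ± 0.60, adjusted p = 0.000569) and 22.2 to 80.8 against 0.483 to 1.63 CPM (5.68 ± 0.71, adjusted p = 0.00164). Nfkbia, the pathway's feedback inhibitor, was higher by 1.10 ± 0.28, with Traf1 (3.47 ± 0.60), Bcl3 (4.87 ± 0.91), Nfkbiz (1.92 ± 0.41) and Relb (2.55 ± 0.57). Interferon response genes were higher in 10 of 23 and lower in 0 (12 and 1 by title). Irf7, the factor that amplifies the response and that plasmacytoid dendritic cells hold at rest, was at 342, 230.4, 529 and 97.9 CPM in Npm1 Flt3 replicates 1 to 4, 17.1 and 21.9 CPM in Dnmt3a Flt3 replicates 2 and 3, and 40.3 CPM in replicate 1. For Irf7 every Npm1 Flt3 library lay above all 3 of Dnmt3a Flt3 (3.98 ± 0.63, adjusted p = 0.0044). Mx1 (21.9 to 74.8 against 1.01 to 1.79 CPM; 5.18 ± 0.66), Isg15 (11.7 to 44.3 against 3.48 to 4.12 CPM; 2.78 ± 0.62), Rsad2 (19.5 to 32.6 against 2.15 to 7.07 CPM; 2.74 ± 0.52), Ifi44 (3.06 ± 0.55), Zbp1 (3.65 ± 0.67), Bst2 (1.69 ± 0.31), Ifitm3 (1.29 ± 0.29), Oas2 (2.45 ± 0.63) and Oas1a (1.41 ± 0.39) were higher. Replicate 3 had the highest and replicate 4 the lowest Irf7 and Isg15, as for the B cell genes.

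Interferon-stimulated genes are switched on through the ISRE, whose core repeats GAAA. 3 promoters of genes that were higher are shown as examples that hold such a repeat. Each pair of GAAA runs that any 2 bases separate (either strand, overlapping matches run on) is in capitals. The promoters are the 250 bases before the RefSeq start of Isg15 (minus strand, chr4:156200819-156201068), Rsad2 (minus strand, chr12:26456453-26456702) and Oas1a (minus strand, chr5:120907526-120907775), GRCm38.p6.
Isg15: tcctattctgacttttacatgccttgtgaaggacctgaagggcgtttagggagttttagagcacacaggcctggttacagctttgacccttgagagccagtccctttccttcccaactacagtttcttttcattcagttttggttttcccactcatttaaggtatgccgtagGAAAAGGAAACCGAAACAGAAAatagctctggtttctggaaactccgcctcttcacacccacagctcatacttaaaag
Rsad2: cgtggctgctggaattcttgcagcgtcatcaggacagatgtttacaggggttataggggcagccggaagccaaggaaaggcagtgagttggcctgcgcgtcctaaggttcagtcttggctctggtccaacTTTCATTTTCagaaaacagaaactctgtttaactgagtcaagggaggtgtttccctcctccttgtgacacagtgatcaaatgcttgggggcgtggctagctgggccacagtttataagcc
Oas1a: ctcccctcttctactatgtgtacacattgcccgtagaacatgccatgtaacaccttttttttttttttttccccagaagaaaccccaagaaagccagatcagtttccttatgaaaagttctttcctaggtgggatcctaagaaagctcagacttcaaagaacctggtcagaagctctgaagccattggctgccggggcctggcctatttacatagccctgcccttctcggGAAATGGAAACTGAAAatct
The motif stood in 10 of the 17 list members with a promoter in the table and in 3.05% of all 27025 promoters. It was present both in members that were called, such as these, and in members that were not, such as Ifit1 (0.785 to 17.4 against 4.16 to 6.55 CPM; adjusted p = 0.537). The called members Irf7, Ifi44 and Ifitm3 had a promoter in the table without the motif.

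Cell cycle genes leaned lower in Npm1 Flt3, with calls in both directions. Among 18 S phase genes, 13 were lower and 4 higher without overlap between the 4 and the 3 libraries. Among 18 G2 and M phase genes, 13 were lower and 1 higher in that way. Over all tested genes 34.2% showed no overlap in either direction. DESeq2 called 7 S phase genes lower and 3 higher, and 9 G2 and M phase genes lower and 1 higher. S phase genes were lower in 5 of 18 and higher in 3 (6 and 2 by title), and G2 and M phase genes lower in 3 of 18 and higher in 1 (8 and 1 by title). The replication licensing gene Mcm6 was at 587 to 791 against 1227 to 1496 CPM (-0.87 ± 0.25, adjusted p = 0.0463) and Mcm4 at 188 to 346 against 517 to 583 CPM (-1.16 ± 0.29). Rrm1 (-1.18 ± 0.29), Cdc6 (-1.01 ± 0.29), Ccne2 (-1.57 ± 0.33), Kif11 (70.7 to 155.99 against 314 to 339.5 CPM; -1.48 ± 0.29), Bub1 (-1.17 ± 0.26) and Ccnb1 (-1.10 ± 0.27) were lower too. The cyclin genes Ccne1 (15.2 to 52.8 against 6.07 to 6.94 CPM; 2.26 ± 0.56) and Ccna2 (33.4 to 89.8 against 17.1 to 41.0 CPM; 1.79 ± 0.38) and the factor gene E2f1 (30.5 to 38.4 against 9.15 to 11.7 CPM; 1.94 ± 0.36) were higher. Cdt1 was at 70.5 to 103 against 25.5 to 152 CPM, and its call of 1.27 ± 0.34 was lost by title (adjusted p = 0.801). Among 10 cell cycle inhibitors, Cdkn1a, the p53 target p21, was at 77.6, 142, 149 and 179 CPM in Npm1 Flt3 replicates 1 to 4, 47.8 and 48.5 CPM in Dnmt3a Flt3 replicates 2 and 3, and 34.7 CPM in replicate 1. For Cdkn1a every Npm1 Flt3 library lay above all 3 of Dnmt3a Flt3 (1.58 ± 0.40, adjusted p = 0.03). Cdkn1b, p27, was at 17.0 to 27.8 against 4.04 to 6.58 CPM (1.89 ± 0.41, adjusted p = 0.0167), with Rb1 (2.66 ± 0.61) the other member that was higher. Cdkn2c, p18, which restrains stem cell cycling, was lower (4.48 to 8.40 against 24.2 to 36.4 CPM; -2.22 ± 0.43, adjusted p = 0.00979), as was Rbl2 (-1.56 ± 0.38). Of 15 p53 targets 2 were higher, Cdkn1a and Btg2, and 0 lower (3 and 2 by title), near the 12% called over all genes tested. The growth factor gene Myc was at 427 to 705 against 486 to 511 CPM and did not pass (adjusted p = 0.542).

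Nucleolar and ribosome biogenesis genes, the processes in which nucleophosmin acts, were lower in 2 of 20 and higher in 1 (7 and 1 by title). That is near the 12% called over all genes tested. DESeq2 called 8 lower and 1 higher. Without overlap between the 4 and the 3 libraries, 14 were lower and 2 higher, where 34.2% of all tested genes showed no overlap in either direction. The summed level was 6139 to 7674 CPM in the Npm1 Flt3 libraries and 10089.9 to 10635 CPM in the 3 Dnmt3a Flt3 libraries. Mybbp1a (250.3 to 374 against 668 to 778 CPM; -1.21 ± 0.26, adjusted p = 0.0167) and the RNA polymerase I subunit gene Polr1b (83.4 to 129 against 191 to 219 CPM; -1.04 ± 0.23, adjusted p = 0.0181) were lower, and Rrs1 was higher (12.8 to 45.7 against 3.33 to 4.33 CPM; 3.15 ± 0.56, adjusted p = 0.00723). Among DNA methylation genes 2 of 13 were higher and 2 lower. Dnmt1, the maintenance methyltransferase, was at 385, 560.0, 625 and 440.2 CPM in Npm1 Flt3 replicates 1 to 4, 1348 and 1391 CPM in Dnmt3a Flt3 replicates 2 and 3, and 1198 CPM in replicate 1. For Dnmt1 every Npm1 Flt3 library lay below all 3 of Dnmt3a Flt3 (-1.40 ± 0.28, adjusted p = 0.011). The methyl-CpG reader Mbd1 was lower too (-1.32 ± 0.32). Mbd2 (13.7 to 47.5 against 5.42 to 8.05 CPM; 2.34 ± 0.56) and the demethylase Tet3 (58.5 to 77.5 against 25.6 to 39.1 CPM; 1.07 ± 0.31) were higher. Dnmt3b (54.5 to 83.5 against 92.97 to 120.0 CPM; adjusted p = 0.327), Tet2 (9.69 to 40.6 against 13.2 to 25.9 CPM; adjusted p = 0.165) and Uhrf1 (197 to 414 against 448 to 505 CPM; adjusted p = 0.171) were not called. Polycomb and trithorax genes were higher in 6 of 17 and lower in 1 (6 and 2 by title). Ezh2, the H3K27 methyltransferase, was at 92.0 to 160.1 against 51.8 to 62.1 CPM (1.30 ± 0.28, adjusted p = 0.0148) and its partner Suz12 at 25.3 to 69.6 against 16.5 to 21.7 CPM (1.56 ± 0.42, adjusted p = 0.037). Cbx7 (3.51 ± 0.55), Kdm6b (2.40 ± 0.69), Asxl1 (1.09 ± 0.27) and Dot1l (1.40 ± 0.32) were higher, and Bap1 was lower (-0.88 ± 0.24). Of 9 germline genes, often taken as a sign of lost methylation, 1 was called, near the 12% over all genes tested. Ddx4 was higher in Npm1 Flt3 (1.93 to 8.60 against 0.0174 to 0.14 CPM; 5.76 ± 1.10, adjusted p = 0.00956). Of 22 imprinted genes edgeR called 0, and 0 of the 20 tested by title, with 2 at an unadjusted p under 0.05 in the main test. DESeq2 called 2 of them higher and 1 lower.

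Cholesterol genes had more lower calls, as a share of the list, than any other list in the main test, 6 of 16 lower and 0 higher (8 and 1 by title), with a median of -0.70. This ranking too is only a description, of lists chosen with earlier results of these data known. Sqle, squalene epoxidase of the sterol pathway, was at 38.8, 82.2, 88.2 and 70.6 CPM in Npm1 Flt3 replicates 1 to 4, 190.4 and 175 CPM in Dnmt3a Flt3 replicates 2 and 3, and 166 CPM in replicate 1. For Sqle every Npm1 Flt3 library lay below all 3 of Dnmt3a Flt3 (-1.32 ± 0.35, adjusted p = 0.036). Lss (21.1 to 35.1 against 61.6 to 81.7 CPM; -1.34 ± 0.32), Idi1 (4.65 to 10.7 against 20.8 to 26.7 CPM; -1.77 ± 0.43) and Sc4mol (35.8 to 47.9 against 60.1 to 94.9 CPM; -0.91 ± 0.26), further enzymes of that pathway, were lower too. Hk1 was lower (66.9, 153, 162 and 100.2 CPM in Npm1 Flt3 replicates 1 to 4, 611 and 533 CPM in Dnmt3a Flt3 replicates 2 and 3, and 558 CPM in replicate 1; -2.19 ± 0.36, adjusted p = 0.00493) and was the 1 glycolysis gene of 16 called (3 lower by title). Among 14 serine, glycine and folate genes 1 was higher and 1 lower (1 and 2 by title), near the 12% called over all genes tested. Mthfd1 was lower (133 to 227 against 414 to 467 CPM; -1.23 ± 0.29, adjusted p = 0.0218), and Gldc, glycine decarboxylase, was at 29.0, 44.9, 14.4 and 40.1 CPM in Npm1 Flt3 replicates 1 to 4, 0.0778 and 0.122 CPM in Dnmt3a Flt3 replicates 2 and 3, and 0.139 CPM in replicate 1. For Gldc every Npm1 Flt3 library lay above all 3 of Dnmt3a Flt3 (8.33 ± 0.74, adjusted p = 0.000503), and the gene was nearly silent in every Dnmt3a Flt3 library. Mitochondrially encoded genes were higher in 3 of 8 (5 by title): mt-Nd4 (194 to 731 against 77.8 to 129.6 CPM; 1.90 ± 0.42), mt-Co1 (1.55 ± 0.35) and mt-Nd6 (2.09 ± 0.51). They made up 0.445 to 1.39% of counts in Npm1 Flt3 and 0.217 to 0.423% in Dnmt3a Flt3. The part of that share in other differences was not tested. Of 17 nuclear oxidative phosphorylation genes 1 was higher, Atp5g3 (376 to 548 against 152 to 185 CPM; 1.30 ± 0.29, adjusted p = 0.017), and by title 7 were higher and 2 lower.

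The 12 largest rises were picked by fold change among genes with a mean log2 CPM of at least 3. No overlap between the 4 and the 3 libraries was a further condition. Their low levels in the Dnmt3a Flt3 libraries follow largely from that choice and are given as a description. Gpr33, a chemoattractant receptor-like gene of dendritic cells, had 5452 counts over the 4 Npm1 Flt3 libraries and 0 over Dnmt3a Flt3 replicates 2 and 3. It was at least 672.7-fold higher in Npm1 Flt3 when set against 3 counts over the group, and replicate 1 held 1 count. Atf3, a stress-induced factor, had 10148 counts against 3, a ratio of 1252 with a 95% exact counting interval of 428 to 6073. Phf11 had 22456 counts against 2 (ratio 4156, interval 1150.5 to 34323), and replicate 1, which this ratio leaves out, held 11 counts. O3far1, a fatty acid receptor gene, had 4615 against 2 (ratio 854, interval 236 to 7055), and the interferon-inducible Ifi204 had 5531 against 3 (ratio 682, interval 233 to 3310). These intervals cover counting error only. Ifi205, of the same family, was at 354, 186, 386 and 70.6 CPM in Npm1 Flt3 replicates 1 to 4, 0.0623 and 0.687 CPM in Dnmt3a Flt3 replicates 2 and 3, and 0.348 CPM in replicate 1. Its log2 fold change was 9.38 ± 1.10 (adjusted p = 0.00129). Aif1, a macrophage protein gene, was at 30.8 to 127 against 0.061 to 0.234 CPM (8.97 ± 0.97). Cd36, a scavenger receptor gene, was at 79.2, 65.5, 113 and 47.3 CPM in Npm1 Flt3 replicates 1 to 4, 0.234 and 0.107 CPM in Dnmt3a Flt3 replicates 2 and 3, and 0.0435 CPM in replicate 1. The log2 fold change of Cd36 was 8.83 ± 0.64 (adjusted p = 0.000244). Batf3, Camp and Bcl2a1a, given above, were also among the 12 largest.

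Lower in Npm1 Flt3 by the most was Grb7, a signalling adaptor gene, at 0.0349, 0.0656, 0.0562 and 0 CPM in Npm1 Flt3 replicates 1 to 4, 24.1 and 34.3 CPM in Dnmt3a Flt3 replicates 2 and 3, and 33.7 CPM in replicate 1. Its log2 fold change was -9.51 ± 0.81 (adjusted p = 0.000459). The largest falls, like the rises, were picked among genes with no overlap between the 4 and the 3 libraries. Mab21l2, best known from eye and limb development, was at 1.34, 0, 0.59 and 0.0103 CPM in Npm1 Flt3 replicates 1 to 4, 133 and 91.2 CPM in Dnmt3a Flt3 replicates 2 and 3, and 127 CPM in replicate 1. The log2 fold change of Mab21l2 was -7.88 ± 1.21 (adjusted p = 0.00398). Plscr2, a scramblase gene, was at 0.5, 0.0985, 0.964 and 0.134 CPM in Npm1 Flt3 replicates 1 to 4, 96.1 and 110.1 CPM in Dnmt3a Flt3 replicates 2 and 3, and 122 CPM in replicate 1. That of Plscr2 was -7.84 ± 0.78 (adjusted p = 0.000684). The highest level of any of these 3 genes in a Npm1 Flt3 library was 1.34 CPM, that of Mab21l2 in replicate 1. Echdc2 (0.361 to 6.31 against 114 to 196 CPM; -5.52 ± 0.73), Apob, the structural protein of lipoproteins (3.11 to 4.63 against 49.3 to 82.9 CPM; -4.42 ± 0.32), the non-muscle myosin gene Myh10 (0.33 to 6.63 against 65.8 to 89.2 CPM; -4.31 ± 0.75) and Igfals (1.61 to 5.96 against 67.9 to 74.1 CPM; -4.26 ± 0.49) followed. Angpt1, the niche factor angiopoietin-1, was at 20.5, 42.8, 21.7 and 18.2 CPM in Npm1 Flt3 replicates 1 to 4, 224 and 246 CPM in Dnmt3a Flt3 replicates 2 and 3, and 188 CPM in replicate 1. Its log2 fold change was -3.17 ± 0.33 (adjusted p = 0.000866). Tie1, of the angiopoietin receptor family, was at 1.21 to 6.14 against 38.7 to 84.4 CPM (-4.05 ± 0.58, adjusted p = 0.0031). Zfp951 (0.0103 to 6.45 against 28.5 to 41.1 CPM; -3.86 ± 1.12), Rnase10 (0.234 to 6.01 against 16.8 to 217 CPM; -3.75 ± 0.91) and Cdcp1 (1.43 to 7.21 against 33.9 to 39.8 CPM; -3.18 ± 0.65) complete the 12 largest. Rnase10 varied most among the Dnmt3a Flt3 libraries, with 67.0 and 16.8 CPM in replicates 2 and 3 and 217 in replicate 1.

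Transcript features of the called genes are given as a description. The longest GENCODE M21 transcript had a median length of 3042 bases for genes higher in Npm1 Flt3, 4113 bases for genes lower and 2789 bases over all genes tested. Its median GC content was 51.8%, 47.9% and 49.9% in the same order. A transcript was matched for 91.3%, 90.7% and 87.9% of these genes. The part of length or GC content in the calls was not tested. The same comparison for CpG counts in promoters is void, because the promoter table held a start for 61.0% of the tested genes.

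GMP of the same genotypes were used to see which of these differences belong to LSK. In a fit of 12 sorted libraries the same contrast in GMP called 3267 of 20401 genes (16%). Of the 2256 genes called in LSK, 2177 had the same sign in GMP, 1592 were called there with the same sign and 6 with the opposite sign. LSK and GMP of one code number come from one animal, so the 2 contrasts are not independent. The difference between the contrasts was called for 58 genes (0.284% of those tested), of which 30 were called in LSK. Leaving out Dnmt3a Flt3 GMP replicate 3 reduced the 58 to 5, and leaving out Dnmt3a Flt3 LSK replicate 2 or 3 to 15 or 27. It also fell to 29 without Npm1 Flt3 LSK replicate 2 and to 36 without Dnmt3a Flt3 GMP replicate 1. With the animal number as a block the count was 55, of which 26 were among the 58. In that fit the difference rested on animals with both fractions. These were numbers 1, 2 and 5 of Npm1 Flt3 and only number 96 of Dnmt3a Flt3, so it is a weak check.

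Vpreb1 was higher in LSK and lower in GMP (-1.87 ± 0.58; difference 8.44 ± 1.00, adjusted p = 0.0031), from GMP levels of 0.266 to 0.611 against 1.12 to 1.50 CPM. Clec12a, an inhibitory lectin of myeloid cells, was higher by more in LSK (difference 1.50 ± 0.26, adjusted p = 0.0257), a call that was lost with the animal number as a replicate block (1.75, adjusted p = 0.177). In the other direction Klf4 was higher by 9.43 ± 0.81 in GMP, from 24.6 to 74.5 against 0.0388 to 0.082 CPM (difference -6.06 ± 0.81, adjusted p = 0.00531). Ctss (difference -2.90 ± 0.50, adjusted p = 0.0244), H2-Aa (-3.38 ± 0.65, adjusted p = 0.0436) and Ciita (-3.84 ± 0.72, adjusted p = 0.0413) likewise had the larger fold change in GMP. Ciita in GMP was at 152 to 377 against 1.42 to 2.24 CPM, so that its Dnmt3a Flt3 level there was far below the 13.5 to 20.4 CPM of Dnmt3a Flt3 LSK. For Hoxa9 the contrast was 0.50 ± 0.21 in GMP (adjusted p = 0.135) and for Hoxa7 0.68 ± 0.28 (adjusted p = 0.115), and the difference from LSK did not pass for either (adjusted p = 0.847 and 0.79).

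**Figure D4:**
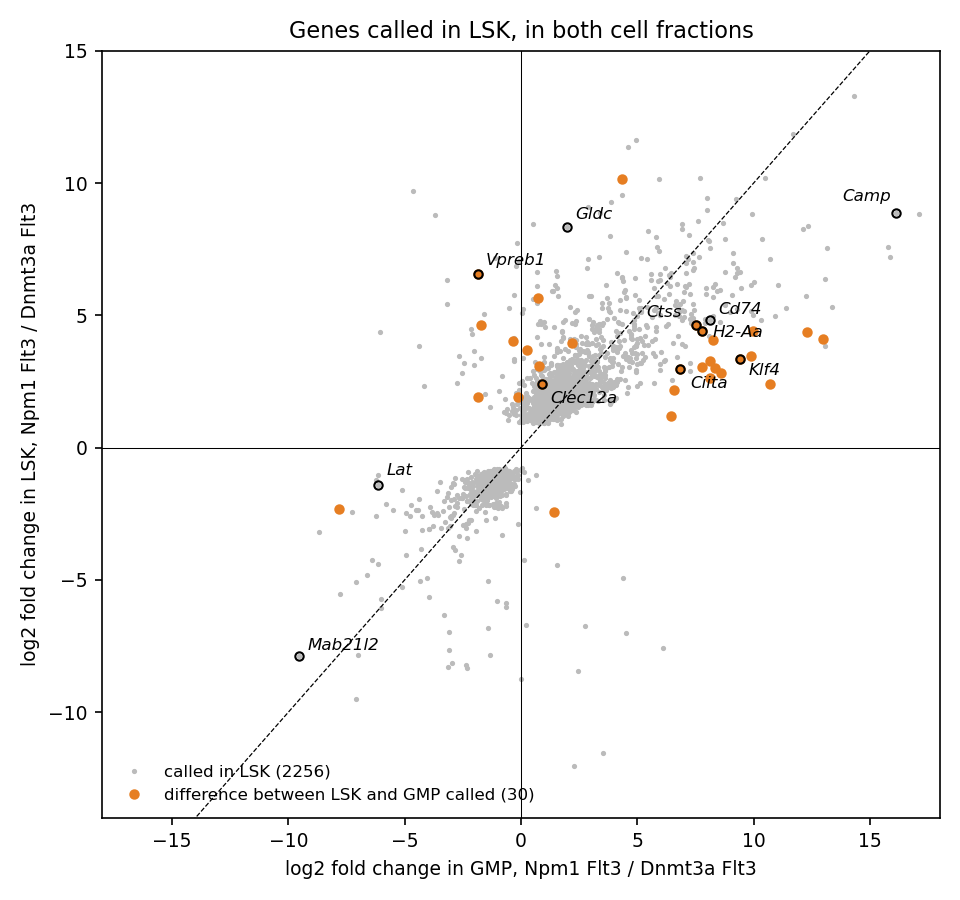
Log2 fold change, Npm1 Flt3 over Dnmt3a Flt3, in GMP (horizontal axis) and in LSK (vertical axis) for the 2256 genes called in LSK. Orange points are the 30 of them whose difference between LSK and GMP was called, the dashed line marks equal fold changes, and 2177 of the genes have the same sign in both fractions.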

How the data were processed

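RNA was read as gene counts. Mouse marrow cells were sorted by flow cytometry into Trizol and RNA was prepared with a Zymo kit, per the labels' protocols. Libraries were either paired-end or 3' single-end, made with different Takara kits, and the labels do not say which kit belongs to which library. The deposited table holds raw counts per gene and library, and the submitters' processing notes name STAR, featureCounts and mm10. Versions, annotation and strand setting are not given in the sources used here, so overlapping, antisense and near-identical genes are uncertain. The members and the gene lists were chosen with earlier results of these data known.

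The main test was edgeR's quasi-likelihood F test (edgeR 4.0.16 in R 4.3.3; TMM scaling, filterByExpr, robust spread, Benjamini-Hochberg adjustment over all genes tested, threshold 0.05) on the deposited counts. Standard errors were taken from the fold change and its F value. CPM are counts scaled to a library total of 1000000. The main test used 4 Npm1 Flt3 and 2 Dnmt3a Flt3 LSK libraries, the test by title added Dnmt3a Flt3 replicate 1, and the difference between LSK and GMP was an interaction in 12 libraries of 4 groups, without the 2 libraries whose title and code conflict. Libraries of LSK and GMP with one code number come from one animal by the sample codes. Their deviations from the group means correlated at 0.18, 0.264, 0.0772 and -0.0429 in the 4 such pairs, and a fit with that number as a block was an alternative. The Wald test of DESeq2 1.42.0 was an alternative. Further alternatives were median-ratio scaling, other filters on low counts, sex-linked genes kept, the title number as a block, a spread shared by 12 libraries, and each library left out in turn. No replicates agreed within sampling noise: a chi-square of their counts was at least 45.6 times its degrees of freedom.

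Genes named outside the lists are the 12 largest rises and the 12 largest falls among those called in the main test and by title, with a mean log2 CPM of at least 3 and no overlap of 4 against 3 libraries, passing over unnamed gene models. From each list, every called member and the members of smallest p could be named, and Hoxa, Hoxb, Hox cofactor and cell type marker genes, Flt3, Npm1 and Dnmt3a whatever their p; uncalled members without a stable sign are given only in the counts. Symbols were matched to GENCODE M21 (28579 of 33924 by name; 107 by RefSeq symbol, 2576 by synonym, 2662 unmatched), and 2258 sex-linked genes were left out. Kmt2d, Hmgcs1, Kcnq1ot1 and Peg13 are not analysed here. Some genes that the rule names are not reported here, though they are counted in their lists. Places are GRCm38, which is mm10, and promoters come from RefSeq's GRCm38.p6. For genes at 0 the floor was 3 counts over the group. In simulated counts of 17334 genes for the LSK comparison with 200 changed, 1.47% of genes changed 2-fold, 59.1% of those changed 4-fold and 66.7% of those changed 16-fold were recovered, and 10 unchanged genes were called.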

Additional observations from a re-analysis of the deposited data

Results flagged for a closer look

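Among the 241 genes given in the text or just below, 13 had 1 of the 4 Npm1 Flt3 LSK libraries far from the others by Dixon's test at the 95% level. Chance alone gives about 1 group in 20. In 11 the library was high: Dusp1 at 208 CPM against 52.8 to 75.05 in the others, Klf2 at 68.6 against 22.8 to 24.5, Ier3 at 99.1 against 56.7 to 58.7, Sult1a1 at 62.0 against 21.8 to 27.5, Cd63 at 156.4 against 76.9 to 86.0, and Hspd1 at 593 against 385 to 413. So were Prtn3 at 474 against 363 to 370, Angpt1 at 42.8 against 18.2 to 21.7, Ccne2 at 42.8 against 19.4 to 23.0, Itgam at 14.8 against 8.59 to 9.44, and Cd3e at 0.465 against 0 in each other library. In 2 it was low: Tet2 at 9.69 CPM against 35.4 to 40.6, and Ly6g at 0 against 0.443 to 0.512.

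In 10 genes the log2 difference between Npm1 Flt3 and Dnmt3a Flt3 was not the same in LSK and GMP by edgeR's interaction test. Those given in the report were Vpreb1 (8.44), Clec12a (1.50), Klf4 (-6.06), Ciita (-3.84), H2-Aa (-3.38) and Ctss (-2.90), each as LSK minus GMP. The other 4 were chosen from the 58 after their values were seen. Mcpt8, a basophil protease, was at 38.6 to 129 CPM in Npm1 Flt3 LSK and 78.0 to 98.7 CPM in Dnmt3a Flt3 LSK, and at 40.6 to 76.2 and 715 to 882 CPM in GMP (difference 3.55, adjusted p = 0.0175). Cpa3, a mast cell and basophil protease, was at 34.0 to 129 and 24.0 to 49.2 CPM in LSK, and at 30.1 to 67.0 and 330.2 to 477 CPM in GMP (difference 4.20, adjusted p = 0.0157). In both genes the Dnmt3a Flt3 GMP libraries stood apart from every other group. Lck, a Src-family kinase best known in T cells, was at 215 to 336 and 450 to 560 CPM in LSK, and at 6.62 to 10.6 and 177 to 240.3 CPM in GMP (difference 3.81, adjusted p = 0.00119). Plac8, a gene of myeloid and lymphoid progenitors, was at 1092 to 1902 and 372 to 402 CPM in LSK, and at 1453 to 2049 and 1677 to 1813 CPM in GMP (difference 2.06, adjusted p = 0.0297, and 0.0644 with the animal number as a replicate block).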

How the results depend on the processing

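For the LSK comparison (2256 genes called), DESeq2 called 4497 genes, a filter of at least 5 CPM in 2 libraries 3412, and the test by title 3533. The filter left fewer genes to test and the test by title added a library, and the cause of these differences was not tested. Leaving out 1 library gave 452 to 2504. Median-ratio scaling, no filter, sex-linked genes kept, a spread shared by 12 libraries and each animal once by title stayed within 1.5 times. The title number as a replicate block gave 3394 calls; samples of one title number share only that number (correlations of -0.0127 and 0.0114). For the difference between LSK and GMP (58 genes, 0.284% of those tested), DESeq2 called 384 (1.88%), no filter 92 (0.312%), the 5 CPM filter 99 (0.923%), and the test by title 89 higher and 69 lower (0.837%). Leaving out 1 library gave 5 (0.0221%) to 79 (0.393%). The replicate block by animal number gave 55 (0.27%), and of the genes named it ended the calls of Clec12a and Plac8 and no other. Only 1 Dnmt3a Flt3 animal, number 96, had both fractions in that fit, so the calls it kept are weakly checked. Of the comparisons of a called named gene in LSK with an alternative, 2625 kept the call, 429 kept the direction without the call, and 3 reversed; of those of an uncalled one, 488 stayed, 53 became called in the same direction and 4 reversed. Jun reversed by title (-0.47) and with each animal once (-0.97), Cdt1 with each animal once (-0.18), and the uncalled Socs2 without a filter (0.10) and without Npm1 Flt3 replicate 2 (0.060), replicate 3 (0.066) or Dnmt3a Flt3 replicate 2 (0.22, in a range of -0.23 to 0.22 over the libraries left out). None of these reversed values passed the test. With 2 Dnmt3a Flt3 libraries, a change of 2-fold was seldom recovered in simulated counts, so an uncalled gene is not shown to be unchanged.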
